A study of Mus musculus with 6 samples.

Results

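This account covers imprinted growth genes, 6 on distal mouse chromosome 7 and 1 on chromosome 17, in mouse iPSCs, which are pluripotent stem cells made by reprogramming fibroblasts. The rule named 7 genes, Igf2, H19, Igf2r, Cdkn1c, Phlda2, Kcnq1ot1 and Kcnq1, and took for each the brightest probe set that carries a single gene symbol. Of these 7, 5 were measured among 19938 genes in all. H19 and Kcnq1ot1 had no such probe set in the annotation used and were not analysed here, so the paternally expressed members are represented by Igf2 and the maternally expressed ones by Igf2r, Cdkn1c, Phlda2 and Kcnq1. Igf2r, the receptor, lies on chromosome 17 and not on chromosome 7.

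The study measured total RNA of bulk cultures on 6 Affymetrix arrays, 3 labelled primed and 3 labelled naive, and aimed to set its lines beside pluripotent cells of the literature. Primed cultures grew on feeders or matrigel in medium conditioned by mouse embryonic fibroblasts with 8 ng/ml basic FGF. Naive cultures grew in medium with 15% fetal bovine serum and 1000 U/ml leukaemia inhibitory factor. The titles derive the primed lines from adult dermal fibroblasts and the naive lines from embryonic fibroblasts, while the source label names embryonic fibroblasts throughout. If the titles hold, the effects of culture and of origin cannot be told apart. No genotype, strain, sex, age, passage or line number is used here, and the titles number biological replicates but do not name separate lines or cultures. The p-values therefore weigh each difference against the spread between these arrays, which may not stand for the spread between separate lines.

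Imprinted genes are expressed mainly or only from the allele of one parent, set by methylation that the egg or sperm leaves at control regions. On distal chromosome 7, one control region serves Igf2 and H19, and another, at the start of Kcnq1ot1, serves Cdkn1c, Phlda2, Kcnq1 and their neighbours, which the paternal Kcnq1ot1 RNA silences in cis. IGF2 promotes growth of the embryo and placenta, whereas the products of Igf2r, Cdkn1c and Phlda2 restrain it. The arrays read both alleles together, so no value below tells which allele was used.

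The paternally expressed ligand gene Igf2 was lower in primed cells, and Cdkn1c and Phlda2, both maternally expressed, were higher there. The receptor gene Igf2r and the channel gene Kcnq1 did not pass the test, and their groups overlapped. All differences are primed minus naive in deposited log2 units, tested with limma and adjusted over all genes, with a threshold of 0.05. By this test 3 of the 5 measured members differed, against 44.5% of all genes, and the groups did not overlap for the same 3, against 52.9% of all genes. Of the 3, 2 were higher in primed cells, against 21.8% of all genes, and 1 was lower, against 22.7%. The members' share of calls therefore stood near that of the whole array, and the description below rests on each gene's own size and direction. Counts for the lists below stand against the same shares of all genes. Precision is limited by the number of arrays.

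**Figure D1:**
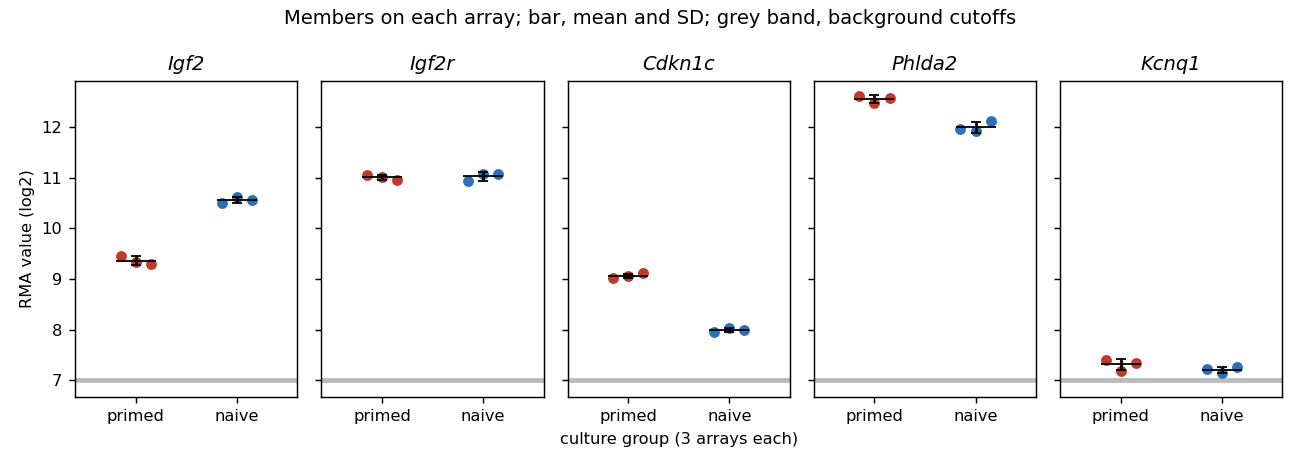
Log2 RMA values of the 5 measured members on each array, with primed arrays in red at the left of each panel and naive arrays in blue at the right. Horizontal bars give the mean and its SD over 3 arrays, and the grey band spans the background cutoffs of the 6 arrays, 6.96 to 7.02. Igf2 is lower on every primed array than on any naive array, Cdkn1c and Phlda2 are higher, and Igf2r and Kcnq1 overlap.

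To show what stands at the start of genes that moved in opposite directions and of one that did not pass, the promoter windows of Igf2, Phlda2 and Igf2r are printed from RefSeq (build GRCm38.p6, 250 bases before to 50 after the start, 5′ to 3′ on the gene's strand, which is minus for all 3). Capitals mark the TATA box TATAAA, the CCAAT box CCAAT and the GC box GGGCGG on either strand, and adjoining or overlapping matches run together. Igf2 has 4 annotated starts, and the one printed is the one nearest the gene's 3′ end; the arrays do not tell which start was used.
Igf2 (chr7:142657447-142657746): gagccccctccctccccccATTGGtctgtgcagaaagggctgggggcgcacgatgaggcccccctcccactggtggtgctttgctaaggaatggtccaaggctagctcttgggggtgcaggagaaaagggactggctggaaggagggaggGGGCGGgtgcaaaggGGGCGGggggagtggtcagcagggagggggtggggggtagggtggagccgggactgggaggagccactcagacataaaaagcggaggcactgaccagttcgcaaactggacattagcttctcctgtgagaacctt
Phlda2 (chr7:143502475-143502774): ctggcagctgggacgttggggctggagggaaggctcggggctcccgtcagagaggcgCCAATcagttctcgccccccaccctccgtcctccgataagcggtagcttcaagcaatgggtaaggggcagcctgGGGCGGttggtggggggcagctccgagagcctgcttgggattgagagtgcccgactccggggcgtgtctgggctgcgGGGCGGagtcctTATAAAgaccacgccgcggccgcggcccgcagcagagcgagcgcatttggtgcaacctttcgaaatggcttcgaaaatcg
Igf2r (chr17:12769657-12769956): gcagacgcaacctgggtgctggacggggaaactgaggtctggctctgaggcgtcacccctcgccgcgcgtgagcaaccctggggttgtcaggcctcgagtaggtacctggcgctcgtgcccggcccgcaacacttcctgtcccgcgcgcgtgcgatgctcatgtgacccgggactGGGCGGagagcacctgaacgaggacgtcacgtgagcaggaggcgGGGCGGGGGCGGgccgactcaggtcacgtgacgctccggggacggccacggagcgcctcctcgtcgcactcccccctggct
The Phlda2 window held 1 TATA box, 1 CCAAT box and 2 GC boxes. The Igf2 window held 0 TATA boxes, 1 CCAAT box and 2 GC boxes, and the Igf2r window held 3 GC boxes and neither of the other motifs. Of 32851 promoter windows in the table, 13.6% hold the TATA box, 37.4% the CCAAT box and 35.7% the GC box. CpG dinucleotides numbered 26 in the Phlda2 window, 34 in the Igf2r window and 7 in the printed Igf2 window, while the other Igf2 windows held 24, 14 and 2. The median over all windows was 7. These are matches of letters, not shown binding sites.

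Igf2 encodes insulin-like growth factor 2, a fetal growth factor. Its value was 9.46, 9.33 and 9.29 on the 3 primed arrays and 10.51, 10.62 and 10.56 on the 3 naive arrays. Every primed value lay below every naive value, with a gap of 1.05 between the nearest arrays. The means were 9.36 ± 0.09 in primed cells and 10.56 ± 0.06 in naive cells (SD, n = 3 each), a difference of -1.20 (SE 0.06, 95% interval -1.34 to -1.07, limma adjusted p = 3.5e-08). Naive cells thus held 2.30 times the primed signal on this scale, and 2.26% of all genes differed by more in either direction. Both groups stayed well above the background cutoff, by 2.37 log2 units in primed and 3.56 in naive cells. In the same comparison 9 of 10 trophoblast markers were lower in primed cells, as were 22.7% of all genes. Of 13 fibroblast markers, 6 were lower, 3 were higher and 4 did not pass. The part of these cell types in the Igf2 difference was not tested.

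The gene of miR-483 lies within Igf2, and its probe set was read as a second view of the locus. The mature sequences (RefSeq, GRCm38.p6, chromosome 7, minus strand), with bases 2 to 8, the seed, in capitals, share no seed with each other.
mmu-miR-483-3p: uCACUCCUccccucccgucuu
mmu-miR-483-5p: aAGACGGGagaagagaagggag
The Mir483 probe set gave 8.65, 8.90 and 9.02 on primed arrays and 9.12, 8.96 and 8.98 on naive arrays. The groups overlapped, and the difference of -0.17 did not pass (SE 0.09, 95% interval -0.36 to 0.03, adjusted p = 0.15). Whether this probe set reads the precursor, the mature forms or the Igf2 transcript is not given in the sources used here. Ins2, an insulin gene that lies next to Igf2, stood just above background at 7.04 in primed and 7.14 in naive cells, a difference of -0.10 that did not pass (adjusted p = 0.19).

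Igf2r encodes the cation-independent mannose 6-phosphate receptor, which binds IGF2, carries it to lysosomes for degradation and sorts lysosomal enzymes. It is maternally expressed in most mouse tissues, while undifferentiated mouse embryonic stem cells are known to use both alleles. Its value was 11.06, 11.02 and 10.97 on primed arrays and 10.93, 11.07 and 11.09 on naive arrays. The naive arrays spanned the whole range of the primed ones. The means were 11.02 ± 0.05 in primed cells and 11.03 ± 0.09 in naive cells (SD, n = 3 each), a difference of -0.01 (SE 0.06, adjusted p = 0.9). The 95% interval ran from -0.14 to 0.12, and differences within it cannot be told from none.

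Airn, the paternal noncoding RNA that silences Igf2r in cis in differentiated tissue, gave 6.79, 7.02 and 6.79 on primed arrays and 6.22, 6.24 and 6.36 on naive arrays. Primed values were higher without overlap (difference 0.59, SE 0.07, adjusted p = 3.9e-05), but 1 of the 3 primed arrays and 0 of the 3 naive arrays exceeded their background cutoff. The Igf2r and Airn genes overlap, and the strand and place of their probe sets are not given here. Of 5 measured genes of the Igf2r domain on chromosome 17, 1 was higher, 1 was lower and 3 did not pass, and 3 of the 5 were dim enough to count as background throughout. The lower one was Mas1 (-0.41), itself in background, as were Slc22a2 (0.13) and Plg (0.08), which did not pass.

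Cdkn1c encodes p57Kip2, an inhibitor of cyclin-dependent kinases that holds cells out of the cycle. Its value was 9.02, 9.05 and 9.11 on primed arrays and 7.95, 8.04 and 8.00 on naive arrays. The groups stood apart by 0.99 between their nearest arrays, and this was the tightest of the members, with an SD of 0.05 in each group. The difference was 1.07 (SE 0.05, 95% interval 0.95 to 1.18, adjusted p = 3.2e-08), or 2.10-fold higher in primed cells. Cdkn1c and Igf2 were the members that passed with at least a 2-fold difference, as 3.55% of all genes did, 1.71% higher and 1.84% lower in primed cells. In naive cells Cdkn1c stood 0.99 above background, a range in which RMA compresses differences.

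Phlda2 encodes a small pleckstrin homology domain protein known for limiting growth of the placenta. Its value was 12.62, 12.48 and 12.58 on primed arrays and 11.96, 11.92 and 12.12 on naive arrays. The lowest primed array exceeded the highest naive array by 0.36. The means were 12.56 ± 0.07 in primed cells and 12.00 ± 0.11 in naive cells (SD, n = 3 each), a difference of 0.56 (SE 0.07, 95% interval 0.42 to 0.70, adjusted p = 2.9e-05), or 1.47-fold higher in primed cells.

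Kcnq1 encodes a voltage-gated potassium channel of heart and epithelia, and the Kcnq1ot1 RNA starts inside it in antisense. Its value was 7.40, 7.19 and 7.35 on primed arrays and 7.21, 7.14 and 7.25 on naive arrays. The groups overlapped, and the means stood 0.32 and 0.20 above background in primed and naive cells. The difference of 0.11 (SE 0.06, 95% interval -0.03 to 0.25) did not pass (adjusted p = 0.2). A gene this close to background has little range in which to show a difference. Taken singly, the two-sided exact permutation test of 3 arrays against 3 gave p = 0.1 for Igf2, Cdkn1c and Phlda2, the smallest it allows.

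**Figure D2:**
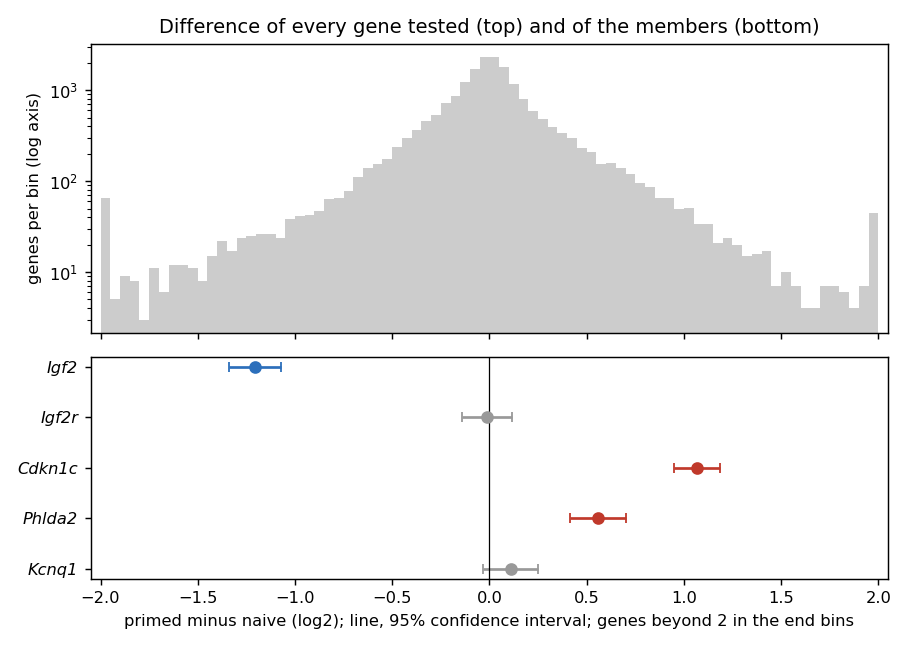
The upper panel counts all 19938 genes by their primed minus naive difference (log2, genes beyond 2 in the end bins, log count axis), and the lower panel gives the 5 members with their 95% intervals. Blue is lower in primed cells, red higher, and grey did not pass; Igf2 at -1.20 and Cdkn1c at 1.07 lie toward opposite edges, and Igf2r at -0.01 lies at the centre.

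Set side by side within arrays, the paternally expressed Igf2 moved opposite to the maternally expressed Cdkn1c and Phlda2, while Igf2r and Kcnq1 did not pass. The Igf2 difference minus that of Cdkn1c was -2.27, minus that of Phlda2 -1.76, minus that of Kcnq1 -1.31 and minus that of Igf2r -1.19. The maternally expressed members also differed among themselves, with Cdkn1c above Phlda2 by 0.51 and above Igf2r by 1.08 in their differences. These values describe unequal change and carry no test, since the members were chosen with results known. The split into maternal and paternal rests on a single paternally expressed gene.

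On distal chromosome 7, in RefSeq order from Tnnt3 to Dhcr7, 27 of 44 annotated genes were measured, of which 9 were higher in primed cells, 6 were lower and 12 did not pass, with a median of 0.04 against 0.00 over all genes. Of the first 12 measured genes, from Tnnt3 to Tssc4, 5 were lower and 2 were higher, and of the other 15, from Trpm5 to Dhcr7, 1 was lower and 7 were higher, a division made after the values were seen and not tested. Cdkn1c, Slc22a18 and Phlda2, which follow each other among the measured genes and are all maternally expressed, were all higher. Slc22a18, for an organic cation transporter-like protein, gave 8.69, 8.56 and 8.69 on primed arrays and 7.81, 7.57 and 7.64 on naive arrays, a difference of 0.97 (SE 0.07, adjusted p = 5.5e-07). Its groups did not overlap.

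Ascl2, a maternally expressed transcription factor gene of trophoblast that the same control region serves, went the other way. It gave 8.49, 8.64 and 8.55 on primed arrays and 9.68, 9.43 and 9.48 on naive arrays, a difference of -0.97 (SE 0.07, adjusted p = 6.8e-07). Its primed values all lay below the naive ones. Nap1l4, a histone chaperone gene next to Phlda2, was lower (-0.29), and Cars, for cysteinyl-tRNA synthetase, was higher (0.72). Cd81 (-0.13), Tnfrsf22 (-0.02) and Osbpl5 (0.05) did not pass. In both groups 5 of the 27 genes stayed in background. In the list of 28 genes drawn up for this domain, 23 were measured, with 6 higher, 7 lower and 10 not passing and a median of -0.10.

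**Figure D3:**
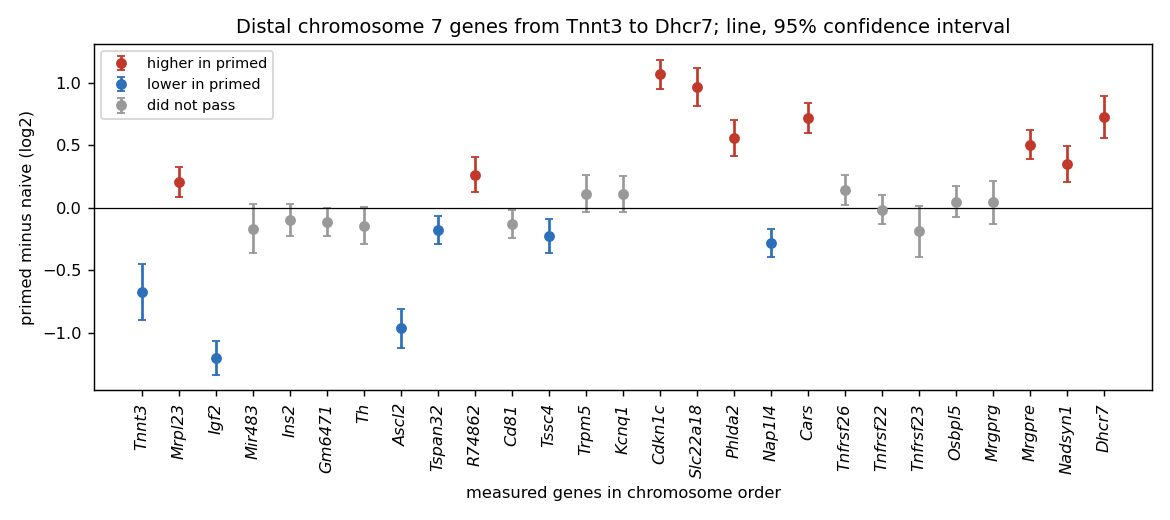
Primed minus naive difference (log2) of the 27 measured genes from Tnnt3 to Dhcr7 in chromosome order, equally spaced, with 95% intervals. Red is higher in primed cells, blue lower and grey did not pass. Igf2 (-1.20) and Ascl2 (-0.97) are the lowest points, and Cdkn1c (1.07), Slc22a18 (0.97) and Phlda2 (0.56) stand together above 0.

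Genes of the IGF and insulin axis divided evenly. Of 27 listed, 25 were measured, and 7 were higher in primed cells, 7 were lower and 11 did not pass. Their median was -0.01, and of all genes 21.8% were higher and 22.7% were lower. Among ligands, Igf2 was lower, while Igf1 (0.02, adjusted p = 0.89) did not pass. Of the 4 receptor genes, Insr, the insulin receptor, was higher by 0.26 (SE 0.07, adjusted p = 0.012). Igf1r, through which IGF2 signals for growth, gave 10.47, 10.39 and 10.32 on primed arrays and 10.22, 10.53 and 10.38 on naive arrays. These overlapped, with a difference of 0.02 (95% interval -0.15 to 0.19). Of the 4 insulin receptor substrates, which relay the signal into the cell, Irs4 (1.21) and Irs1 (0.45) were higher, Irs3 (-0.47) was lower and Irs2 (-0.09) did not pass.

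The secreted IGF-binding proteins, which hold IGFs and alter their access to receptors, differed by up to 1.78, against at most 0.26 among the receptors. Of 7 binding protein genes, 2 were higher in primed cells and 4 were lower, and Igfbp1 was in background in both groups. Igfbp5 gave 9.03, 9.11 and 9.16 on primed arrays and 7.55, 7.21 and 7.19 on naive arrays, a difference of 1.78 (SE 0.09, adjusted p = 3.2e-08). Igfbp2, which binds IGF2 well, gave 11.98, 11.99 and 11.96 on primed arrays and 10.47, 10.45 and 10.38 on naive arrays, a difference of 1.54 (SE 0.05, adjusted p = 1.4e-09). Primed arrays were the higher ones for both genes, without overlap. Igfbp3, the main carrier in serum, gave 11.65, 11.45 and 11.59 on primed arrays and 12.61, 12.72 and 12.65 on naive arrays, a difference of -1.10 (SE 0.06, adjusted p = 9.9e-08). Igfbp7 (-0.98), Igfbp6 (-0.33) and Igfbp4 (-0.23) were lower as well.

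The Igf2 mRNA-binding protein gene Igf2bp1 was lower (-0.43) and Igf2bp3 was higher (0.30). Grb10, an imprinted gene whose adaptor protein restrains insulin and IGF receptors, had the largest difference of the list, 4.68. That gene, on chromosome 11, is expressed from the maternal allele in most tissues.

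**Figure D4:**
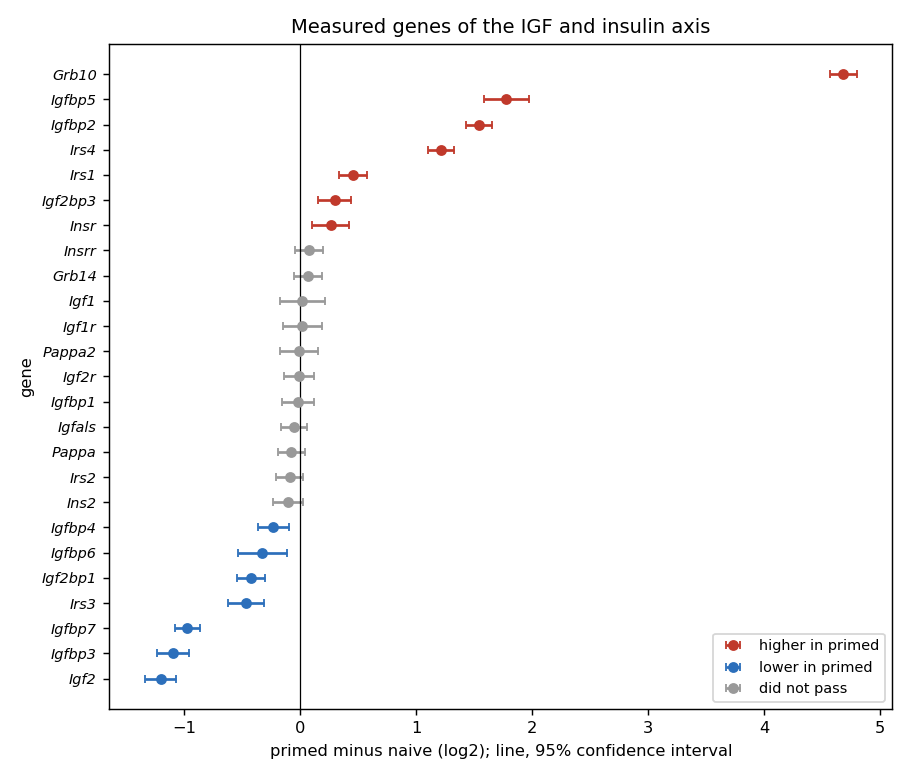
Primed minus naive difference (log2) with 95% interval for the 25 measured genes of the IGF and insulin axis, sorted from highest to lowest. Red is higher in primed cells, blue lower and grey did not pass. Grb10, Igfbp5, Igfbp2 and Irs4 lie above 1, Igf2 and Igfbp3 lie below -1, and Igf1r and Igf2r lie near 0.

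Relatives and partners of the members were read in the same fit. Of 6 measured CDK inhibitor genes, 2 were higher, 1 was lower and 3 did not pass. Cdkn1b, which encodes p27Kip1, a relative of p57Kip2, was higher by 0.51 (adjusted p = 7.1e-06), and Cdkn2b, for p15Ink4b, was lower (-0.35, adjusted p = 0.0042). Cdkn2c, in background in both groups, did not pass (0.11). In the PHLDA family, Phlda1 was lower (-0.97), Phlda2 was higher and Phlda3 (-0.02) did not pass. Of 7 KCNQ channel and KCNE subunit genes, Kcne1 was the single one to pass (0.20, adjusted p = 0.032), in background in both groups. Kcne2 (0.15), Kcnq3 (-0.11) and Kcnq1 did not pass.

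Of 9 measured genes listed for mannose 6-phosphate or other lysosomal sorting, Igf2r included, 4 were higher in primed cells, 1 was lower and 4 did not pass. Over the whole array 44.5% of genes passed in either direction, 21.8% higher and 22.7% lower. Sort1 (0.60), for the sorting receptor sortilin, Gnptab (0.46) and Gnptg (0.36), for subunits of the phosphotransferase that starts the mannose 6-phosphate tag, and the adaptor gene Gga2 (0.42) were higher. Gga3 was lower (-0.32). Igf2r itself was in the group that did not pass.

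Factors that set or keep imprints moved in both directions, 7 higher, 6 lower and 8 not passing of 21, with a median of 0.03. The shares over all genes were 21.8% higher and 22.7% lower. Ctcf, whose protein binds the unmethylated control region beside H19, did not pass (-0.14, adjusted p = 0.058). Zfp57 (0.19) and Zfp445 (0.21), which protect imprints by holding methylation at control regions, were higher by small margins, and their cofactor gene Trim28 was lower (-0.34). Dnmt1, for the maintenance methyltransferase, did not pass (0.01), and Uhrf1, which guides it, was lower (-0.20). The largest differences were those of Dnmt3l (-3.19) and Dppa3 (-2.81), which were in background in primed cells. Tet2 (0.95), for an enzyme that oxidises methylcytosine, and Dnmt3a (0.82), for a de novo methyltransferase, were higher. Methylation itself was not measured.

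Imprinted genes elsewhere were then grouped with the members by expressed allele. This split was drawn up by hand after values were seen, from textbook knowledge of the mouse. It was meant to leave out genes whose expressed allele changes between tissues, but this was not applied evenly. Igf2r, for example, was kept, although undifferentiated mouse embryonic stem cells are known to use both its alleles. The counts and medians depend on these choices. Grb10, Gatm, Ddc, Asb4 and Ppp1r9a, measured in the list of imprinted genes given below, were placed in neither group. Of 16 measured paternally expressed genes, Igf2 included, 12 were lower in primed cells, 2 were higher and 2 did not pass. Their median was -0.72, and of all genes 22.7% were lower and 21.8% were higher. The 2 higher ones were Nnat and Airn, and Airn exceeded background on 1 primed array and 0 naive arrays. Usp29, which did not pass, was in background in both groups. Of 10 measured maternally expressed genes, the members Igf2r, Cdkn1c, Phlda2 and Kcnq1 included, 3 were higher, 4 were lower and 3 did not pass. Their median was 0.05. The 3 higher ones were Cdkn1c, Slc22a18 and Phlda2, all of the distal chromosome 7 domain. Ascl2, among the lower ones, lies in that domain too. Grb10 (4.68, chromosome 11) and Gatm (3.81, chromosome 2), placed in neither group, were higher and lie outside it. Which loci held the higher genes therefore depended on the genes placed. Peg3 (-1.21), Plagl1 (-1.30) and Magel2 (-1.27) had differences close to that of Igf2. Plagl1 encodes a zinc finger factor known to activate Igf2, H19 and Cdkn1c in mouse tissue, and of these Igf2 was lower and Cdkn1c higher here. Several of these genes share a control region, such as Dlk1, Rtl1, Meg3 and Rian on chromosome 12 and Ndn and Magel2, so the counts do not rest on independent genes. In the list of 31 imprinted genes, 25 were measured, 4 were higher, 16 were lower and 5 did not pass, with a median of -0.36. The largest differences of that list were those of Slc38a4 (-6.13), an amino acid transporter gene in background in primed cells, Grb10 (4.68), Gatm (3.81), for an enzyme of creatine synthesis in background in naive cells, and Peg10 (-2.94).

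**Figure D5:**
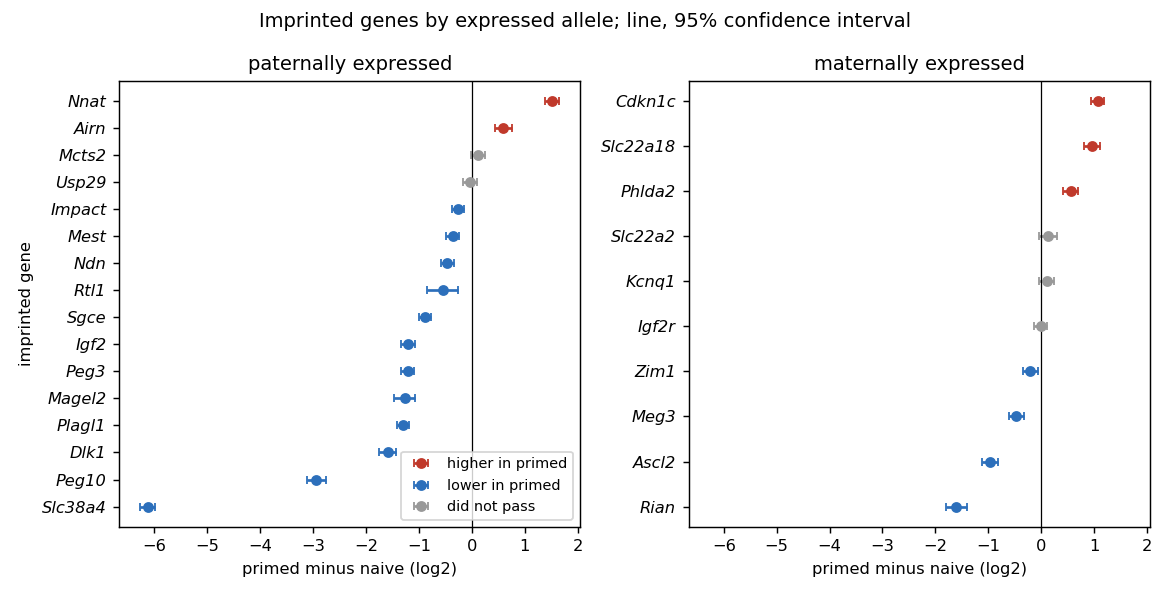
Primed minus naive difference (log2) with 95% interval for 16 paternally expressed genes at the left and 10 maternally expressed genes at the right, the measured members included. Red is higher in primed cells, blue lower and grey did not pass. Most points at the left lie below 0, and the right panel is spread on both sides, with Cdkn1c, Slc22a18 and Phlda2 at its upper end. Grb10 and Gatm, both higher in primed cells, were placed in neither panel.

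Genes whose values over the 6 arrays ran closest to those of each member were found by the root mean square distance between values centred on each gene's own mean among 13466 genes above background in either group. For Igf2 they were Adamts15 (0.02 log2 units), Leng9 (0.02) and Bbx (0.04). For Cdkn1c they were Mapk10 (0.02), Stk39 (0.04) and Mllt10 (0.04), and for Phlda2 they were Nudt16 (0.03), Slc8a2 (0.03) and Tmem143 (0.04). For Igf2r they were Rmi1, Poglut2 and Kctd21 (0.02 each), and for Kcnq1 they were Sdc1 (0.01), Fuz (0.02) and Mrpl38 (0.02). With a pair of groups, such likeness reflects mainly a difference of the same size.

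Markers of several cell types were read in the same fit. Of 13 fibroblast or feeder markers, 3 were higher in primed cells, 6 were lower and 4 did not pass, and their summed level was 13.60 to 13.72 on primed and 13.88 to 13.98 on naive arrays (log2). Acta2 (-1.23) and Tagln (-1.09) were among the lower ones, and Dcn (2.89) was among the higher ones. Of 10 trophoblast markers, 0 were higher, 9 were lower and 1 did not pass, with a summed level of 11.16 to 11.21 on primed and 12.31 to 12.36 on naive arrays. The part of trophoblast cells in the differences of Igf2, Phlda2 and Cdkn1c was not tested. Ascl2 is itself one of these 10 markers. Tpbpa (-0.01), a marker of spongiotrophoblast, was in background in both groups.

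Of 12 extraembryonic endoderm markers, Dab2 (-0.63) was lower and 11 did not pass, with Sox17, Afp and Ttr in background, and the summed level was 11.10 to 11.14 on primed and 11.18 to 11.26 on naive arrays. Of 7 mesoderm or muscle markers, 1 was higher, 1 was lower and 5 did not pass, with a summed level of 10.28 to 10.39 on primed and 10.69 to 10.86 on naive arrays. The part of these cell types in the results was not tested. In bulk cultures, fewer cells of a type and less RNA per cell cannot be told apart. Of 9 pluripotency genes, 6 were lower in primed cells and 3 did not pass. Pou5f1 stood at 11.53 in primed and 12.59 in naive cells, Dppa4 at 7.52 in primed and 9.25 in naive cells, and Zfp42, a marker of naive cells, was in background in both groups. Nanog (-0.61), Dppa3 (-2.81) and Dnmt3l (-3.19), also markers of the naive state, were lower in primed cells, with the labels. The background level of Zfp42 on naive arrays (6.71, 5.98 and 6.02) went against them. These markers were picked from lists that were not drawn up to check the labels. Further naive markers were not counted here. Of markers of the primed state, Otx2 was higher in primed cells (0.92), with the labels. Fgf5 was lower there (8.90 in primed against 10.61 in naive cells), against them. The de novo methyltransferase gene Dnmt3b was lower in primed cells as well (-0.50). No full list of primed markers was counted here.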

How the data were processed

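Total RNA of 3 primed and 3 naive samples was hybridised to Affymetrix arrays. The deposited values are log2 values that the authors made with RMA in Partek 6.6, per the submitters' processing notes; a genome build and other RMA options are not given in those sources. RMA compresses differences of dim genes. Of 35556 probe sets, 21789 had 1 gene symbol, 1621 had several and 12146 are unnamed here; 21698 of the first kind matched RefSeq (GRCm38.p6) by gene ID. The brightest probe set per gene by mean over all arrays gave 19938 genes; each measured member had 1. Array medians were 7.77 to 7.83, and 8.28 to 8.38 over the genes tested. Depth does not apply, and precision is limited by 3 arrays per group. Background was, on each array, the value that 95% of 1194 vomeronasal and olfactory receptor genes did not exceed; a group lay in background where each array was under its cutoff.

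The test was that of limma 3.58.1 under R 4.3.3 (lmFit, eBayes, two-sided, no covariates) on the values as deposited, and p-values were adjusted by Benjamini-Hochberg across every gene; the code was tested on simulated data. Python 3.11.15 made counts and figures. Members and lists were chosen with earlier results of these data known, and no list was given a test. All members were named, with the 4 largest differences of each list, the 3 nearest profiles and genes needed for a role or neighbour. Same-numbered replicates did not vary together (correlations of -0.11, 0.00 and -0.02), so no pairing was used. Tried as alternatives were quantile normalization, centring, removal of genes under the 40th percentile, averaged probe sets, array weights, a trended variance, a replicate block, a threshold of 0.01 and each array left out.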

Additional observations from a re-analysis of the deposited data

How the results depend on the processing

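The calls of the 5 measured members were the same under every alternative that gave a value. Over the 14 alternatives, the difference lay between -1.26 and -1.17 for Igf2 (highest adjusted p = 1.8e-06), 1.01 and 1.09 for Cdkn1c (1.3e-06) and 0.52 and 0.64 for Phlda2 (0.00035). Igf2r lay between -0.06 and 0.05, so that its sign is not settled (adjusted p of 0.46 to 0.94), and Kcnq1 between 0.07 and 0.17 (adjusted p of 0.054 to 0.47); the filter on dim genes removed Kcnq1. With the replicate number as a block, the numbers share no pairing in the labels, and the counts were 4172 genes higher and 4344 lower, against 4347 and 4529 without it; Igf2 was -1.20 (adjusted p = 1.8e-06), and no member's call and no list's count changed. At a threshold of 0.01, 3482 genes were higher and 3540 lower. Without each array in turn, 3926 to 4169 genes were higher and 4007 to 4455 lower.

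Counts of 3 lists moved by over 1.5 times. Of channel genes, 1 was higher as reported, 0 after centring on genes above background, 0 after the filter on dim genes, 2 with array weights and 0 at a threshold of 0.01; leaving out each array gave 0 to 2, with 0 without primed replicate 1, primed replicate 3 or naive replicate 2 and 2 without naive replicate 1. In the Igf2r domain the filter left 0 higher and 0 lower, since it removed the dim genes, and leaving out each array gave 1 to 2 higher, with 2 without naive replicate 1. Of imprint factors, 4 were higher at a threshold of 0.01, and 4 to 6 without each array, with 4 without primed replicate 1. The cause was not tested. Signal over background limits genes in or near background, such as Kcnq1, Airn, Mas1 and Kcne1.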
